A study of Mus musculus with 10 samples.

Results

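The 7 cultures of J558 cells that carried a Pax5 vector did not hold equal amounts of Pax5 transcript, and the genes that ran with this gradient are described here. J558 is a murine myeloma line, that is, transformed plasma cells. The series holds 10 arrays, and the 7 were chosen by their labels, 3 as Pax5 WT and 4 as Pax5 G183S; the other 3 carried the empty vector. They were then ordered by the log2 value of the Pax5 probe set, so the Pax5 values themselves are a description and were not tested. All 10 cultures, controls included, had been infected with the same MSCV retroviral backbone with puromycin resistance and green fluorescent protein, kept in puromycin for 5 to 7 days, and sorted for green fluorescence and IgM. Each array read 100 ng of total RNA. The labels name no age, clone or time after infection, describe replicates as independent and use 1 transformed line, in which a viral vector supplied Pax5. The sort kept cells by vector fluorescence and IgM in every group.

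Pax5 is a paired-domain transcription factor that commits lymphoid precursors to the B lineage, turning on genes of B-cell receptor signalling and antigen presentation and holding down genes of other lineages. It is silenced when B cells become plasma cells. Part of its repression passes through Groucho-family co-repressors (the Tle proteins), which bind its octapeptide motif, and G183S replaces a glycine by serine within that motif. The comparisons ask which genes varied with the amount of Pax5 transcript, which with the protein form, and which with neither.

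Pax5 was highest in Pax5 WT replicate 1 at 10.67 log2 units. It read 10.36 in Pax5 G183S replicate 2, 10.22 in G183S replicate 1, 10.09 in WT replicate 2, 10.05 in WT replicate 3 and 9.96 in G183S replicate 4. The lowest value was 9.38, in G183S replicate 3. On the linear scale the ends of the gradient were 1634 and 666.2 signal units. The 2 constructs overlapped along it, and the 5 arrays in the middle lay close together. The gap below WT replicate 1 was 0.31 log2 units and that above G183S replicate 3 was 0.58, while the next lower array, empty-vector replicate 1, stood a further 2.28 units down at 7.10. Values for single genes are given below in this falling order of Pax5. In bulk RNA, fewer cells with the vector and less Pax5 RNA per cell cannot be told apart.

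**Figure D1:**
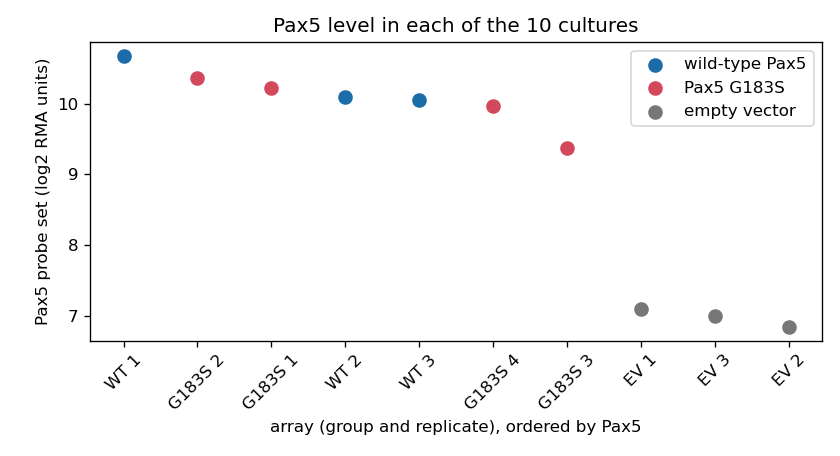
The log2 value of the Pax5 probe set (vertical axis) in each of the 10 arrays (horizontal axis, ordered by Pax5), 1 point per array, coloured by group. WT replicate 1 at 10.67 and G183S replicate 3 at 9.38 stand apart from the 5 arrays between 9.96 and 10.36, and the 3 empty-vector arrays lie at 6.84 to 7.10.

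The median probe set of an array read 6.81 to 6.94 log2 units in the 10 arrays. Over the 7 arrays the median ran against Pax5 (Pearson r = -0.78, exact permutation p = 0.0319; Spearman rho = -0.64, exact permutation p = 0.139), and r was -0.07 without WT replicate 1 and G183S replicate 3. Its part in the slopes was not tested other than by centring, given below. Plasma-cell markers were high. In the 7 arrays Xbp1, which drives the secretory programme, read 12.42 to 13.03, Irf4 11.34 to 12.59 and Sdc1, the surface proteoglycan of plasma cells, 9.73 to 11.03, all above the median gene at 7.24; the receptor gene Tnfrsf17 read 7.72 to 11.12. The probe set used for Ighm, the heavy chain of IgM, read 6.22 to 6.33, below the median gene, although the cells had been sorted for IgM. Markers of other lineages were dim. Of 16 T-cell markers 1 and of 19 myeloid markers 2 lay above the median gene, and the T-cell list averaged 6.08 to 6.30 in the 7 arrays.

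For each of 19936 genes a limma fit over the 7 arrays estimated a Pax5 slope and, at equal Pax5, a difference between G183S and WT. The slope is the change in the gene's log2 value per log2 unit of Pax5. No gene passed for either term: the smallest limma adjusted p was 0.164 for the slope and 0.54 for the construct. The same fit gave 2291 genes with an unadjusted limma p under 0.05 for the slope, 11.5% of those tested, of which 1130 were positive (5.67%) and 1161 negative (5.82%). For the construct it gave 1166 genes (5.85%), 434 higher with G183S (2.18%) and 732 lower (3.67%). These shares are the background for the lists below. Whatever their p, 8199 of the 19936 slopes were positive and 11737 negative, which is the background for counts by sign. Correlating each gene with Pax5 by an exact permutation test over all 5040 pairings gave 2251 genes at p under 0.05 and a smallest adjusted p of 0.433. Centring each array on its median changed the balance of the slopes at an unadjusted limma p under 0.05 to 2345 positive and 431 negative. Whatever their p, 12722 slopes were then positive and 7214 negative. The median slope over all genes went from -0.04 to 0.06. The general direction of the slopes therefore depended on that choice.

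By these unadjusted p-values 1976 genes (9.91%) went with the Pax5 level alone, 851 (4.27%) with the construct alone, 315 (1.58%) with both and 16794 (84.2%) with neither. Among the 51 genes that varied most, with an SD of at least 1 log2 unit over the 7 arrays, 10 went with Pax5, 2 with the construct, 3 with both and 36 (70.6%) with neither. A p over that level does not show that a gene is unrelated to either term. The first principal component of the 7 arrays took 56% of their variance, and its Pearson r with Pax5 was 0.71 (exact permutation p = 0.0593, adjusted 0.178 over 3 components) and Spearman rho 0.79 (exact permutation p = 0.048, adjusted 0.144). Without WT replicate 1 and G183S replicate 3 that r was 0.08, so the relation rests on those arrays.

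The count of slopes rested on the same arrays. It was 2291 with all 7 arrays, 1150 without WT replicate 1 (569 positive and 581 negative) and 888 without G183S replicate 3 (377 and 511). With both left out it was 143, 66 positive and 77 negative, over the 5 arrays that lie close together in Pax5. Leaving out G183S replicate 2 instead gave 3567.

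**Figure D2:**
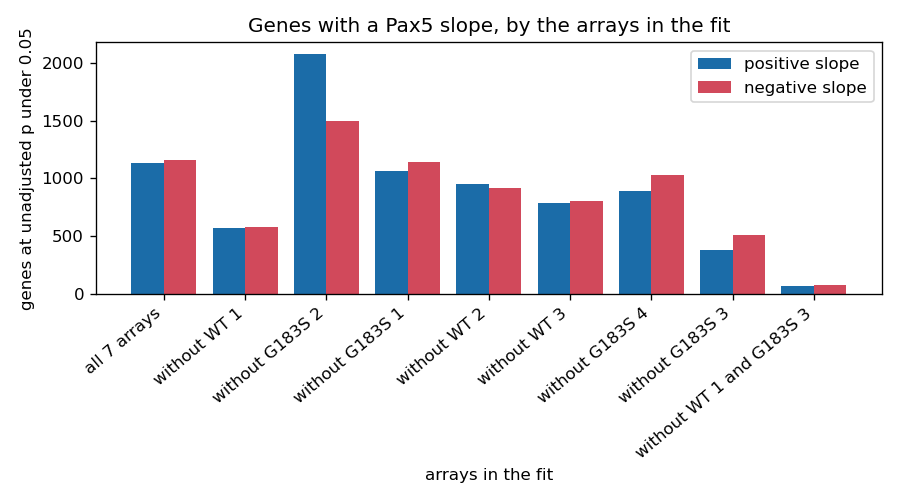
The number of genes with an unadjusted limma p under 0.05 for the Pax5 slope (vertical axis) by the arrays in the fit (horizontal axis), with positive and negative slopes as separate bars. The bars fall from 1130 and 1161 with all 7 arrays to 66 and 77 without the 2 arrays at the ends of the gradient.

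Tmem131l, a transmembrane protein gene, followed Pax5 most closely. It read 10.84, 10.39, 10.29, 10.25, 10.19, 10.07 and 9.42 log2 units in falling order of Pax5, and 9.18 ± 0.16 (SD, n = 3) with empty vector. All 7 arrays stood in the order of Pax5, WT and G183S interleaved, and above the empty-vector mean. Its slope was 1.01 ± 0.08 (SE; limma adjusted p = 0.164), and it was 0.83 ± 0.29 without the 2 end arrays. Pearson r was 0.993 (exact permutation p = 0.000198, the smallest the 5040 pairings can give, adjusted 0.433) and Spearman rho was 1 (exact permutation p = 0.000397, adjusted 0.465). Without the 2 end arrays r was 0.965. A fit with no construct term called this gene alone, with a slope of 1.06 ± 0.08 (limma adjusted p = 0.0369).

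Spag5, which encodes a protein of the mitotic spindle, stood in the same order as well. It read 9.67, 9.46, 9.41, 9.36, 9.23, 9.17 and 8.79, against 8.85 in the mean of the empty-vector arrays. The lowest-Pax5 culture was at the empty-vector level while the other 6 were above it. The slope was 0.69 ± 0.09 (limma adjusted p = 0.31) and r was 0.990, or 0.934 without the end arrays. Over all genes 6 had a rank correlation of 1 and 11 of -1.

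The promoters of these 2 genes are shown because both ran with Pax5 in all 7 arrays, and because Spag5 alone among the leading genes with a promoter entry held the letters GCGTGAC, the core of a sequence that the paired domain recognises. The sequences are RefSeq's, GRCm38.p6, windows of 300 bases that span the start of the gene, 5′ to 3′ on the strand of the gene. Capitals mark GCGTGAC, searched on both strands without overlap with another motif. Spag5 lies at chr11:78301341-78301640 on the plus strand and Tmem131l at chr3:84040112-84040411 on the minus strand.
Spag5: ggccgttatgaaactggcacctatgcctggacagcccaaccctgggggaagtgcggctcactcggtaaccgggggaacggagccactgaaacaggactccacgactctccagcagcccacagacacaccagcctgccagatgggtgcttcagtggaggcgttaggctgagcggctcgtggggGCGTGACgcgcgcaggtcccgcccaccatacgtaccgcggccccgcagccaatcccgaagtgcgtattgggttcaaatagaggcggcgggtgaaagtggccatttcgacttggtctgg
Tmem131l: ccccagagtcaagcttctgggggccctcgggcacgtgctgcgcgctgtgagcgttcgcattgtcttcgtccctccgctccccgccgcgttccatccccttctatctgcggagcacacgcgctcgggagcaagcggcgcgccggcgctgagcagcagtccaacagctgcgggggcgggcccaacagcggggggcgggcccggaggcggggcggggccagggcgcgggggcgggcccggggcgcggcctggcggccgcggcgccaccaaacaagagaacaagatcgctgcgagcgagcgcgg
The letters were found in the windows of 1 of 8 leading genes with a positive slope that had an entry, in 0 of 8 with a negative slope, and in those of 516 of 15612 genes on the arrays (3.31%). Over all 32851 windows the share was 2.09%. They describe the window and say nothing of binding.

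The other leading genes with a positive slope had varied roles. Lipg, endothelial lipase, read 10.49, 9.57, 10.23, 8.78, 8.20, 8.23 and 6.98, with an empty-vector mean of 6.11. It spread over more log2 units than any of the other 11 leading genes with a positive slope: its slope was 3.17 ± 0.44 (limma adjusted p = 0.311). Scimp, a membrane adaptor that signals beside MHC class II, read 9.73, 9.90, 9.20, 8.45, 7.98, 9.01 and 7.90. Its slope was 2.07 ± 0.23 (limma adjusted p = 0.28), yet its Pearson r was 0.80, since the G183S cultures lay above WT cultures of like Pax5. Mybl1, a Myb-family transcription factor of germinal-centre B cells, had a slope of 0.99 ± 0.15 and lay above its empty-vector mean of 9.87 in all 7 arrays.

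The rest of the 12 leading positive slopes were those of the zinc-finger gene Zfp94 (0.83 ± 0.09), the ubiquitin ligase Siah1b (0.90 ± 0.11), the kinetochore gene Kntc1 (0.86 ± 0.11), the adhesion gene Cdh5 (1.23 ± 0.16), Abtb1 (0.86 ± 0.13), the DNA-repair gene Abraxas1 (0.61 ± 0.09) and Prodh, the first enzyme of proline breakdown (1.22 ± 0.19). Their limma adjusted p-values ran from 0.256 to 0.311. Cdh5 and Prodh leaned on the end arrays, with slopes of 0.62 ± 0.54 and 0.16 ± 0.47 without them. Usp39, a splicing gene, was the only one of the 5 genes most like Pax5 by Pearson r (0.986) that was not also among these 12.

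The leading genes with a negative slope included membrane and actin-linked genes of leukocytes. Tspan13, a tetraspanin, read 9.90, 10.52, 10.53, 11.34, 11.47, 11.76 and 12.10 in falling order of Pax5, and 12.22 with empty vector. The order was the exact reverse of that of Pax5, and the lowest-Pax5 culture was near the empty-vector level. The slope was -1.96 ± 0.31 (limma adjusted p = 0.311), and -3.31 ± 0.66 within the 5 middle arrays. Rac2, a signalling gene of blood cells, read 12.01, 12.21, 12.23, 12.31, 12.41, 12.60 and 12.88 against 12.86 with empty vector. It too stood in exact reverse order, with a slope of -0.69 ± 0.10 (limma adjusted p = 0.311), and Pearson r was -0.974, or -0.897 without the end arrays.

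Glipr1 read 6.60, 7.53, 7.88, 8.24, 7.76, 8.46 and 9.51, with an empty-vector mean of 9.80. All 7 arrays lay below that mean, the lowest-Pax5 culture least so, and the slope was -2.08 ± 0.20 (limma adjusted p = 0.2). Gmfg, which remodels branched actin, had a slope of -1.49 ± 0.14 (limma adjusted p = 0.2). It behaved otherwise against the controls: WT replicate 1 read 7.46 and G183S replicate 3 9.05, on either side of the empty-vector mean of 8.11. Fam3b, a secreted cytokine-like protein, had a slope of -0.89 ± 0.10 and reverse order in all 7 arrays.

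The remaining leading negative slopes belonged to Tspan14 (-0.60 ± 0.09), the kinase Prkd2 (-0.61 ± 0.10), the actin-capping gene Capg (-0.92 ± 0.14), the adaptor Lcp2 (-1.88 ± 0.30), the mitochondrial carrier Slc25a43 (-0.66 ± 0.10), the PHD-finger gene Jade2 (-0.95 ± 0.15) and the actin-associated Ppp1r18 (-1.07 ± 0.17). Without the end arrays Lcp2, Slc25a43 and Jade2 had slopes of -0.40 ± 0.78, -0.21 ± 0.32 and -0.22 ± 0.40. Lcp2 was 8.95 in G183S replicate 3 and at most 7.78 in the other 6. Prss27, a serine protease gene, was among the 5 most opposite genes by Pearson r (-0.971), with a shallow slope of -0.31 ± 0.08.

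At the lowest Pax5 level the leading genes were not all back at the control level. In G183S replicate 3, among the 12 positive ones 6 were above the range of the 3 empty-vector arrays, 2 within it and 4 below it. Among the 12 negative ones 6 were above, 3 within and 3 below.

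**Figure D3:**
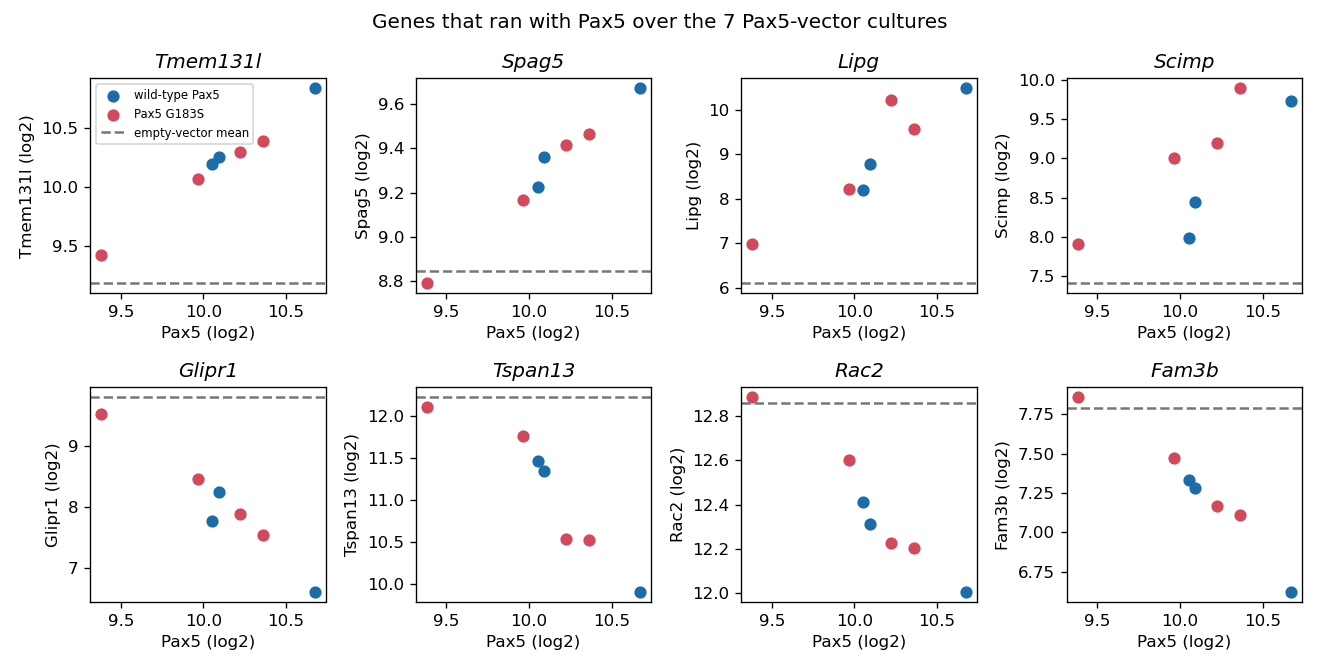
Log2 values of 8 leading genes (vertical axes) against log2 Pax5 (horizontal axes), 1 point per array, blue for Pax5 WT and red for G183S, with the empty-vector mean as a dashed line. Points of both constructs lie along 1 line for Tmem131l and Spag5. For Scimp, red points lie above blue ones of like Pax5, while the red point with the least Pax5 is the lowest. Tspan13 runs from 12.10 at the lowest Pax5 to 9.90 at the highest.

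The slope itself was not told apart between the constructs. A fit with separate slopes called 0 genes (limma, smallest adjusted p = 0.483) and gave 754 at an unadjusted p under 0.05 (3.78%), 387 with the higher slope in G183S (1.94%) and 367 in WT (1.84%). With 3 and 4 arrays on the 2 lines this says little of any single gene.

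Known targets of Pax5 split along the gradient. Of 25 measured genes that Pax5 is known to activate, 18 had a positive slope, 7 of them at an unadjusted limma p under 0.05 and 1 with a negative slope at that level; the median slope was 0.30, against -0.04 over all genes. Irf8, a transcription factor of B and myeloid cells, read 10.53, 9.99, 10.31, 10.08, 10.17, 9.91 and 9.05, with 7.97 for empty vector. All 7 cultures were above the controls, and G183S replicate 3 was the lowest by a clear margin. Its slope was 1.0 ± 0.20 (limma adjusted p = 0.356). The others at that level were the adaptors Bcar3 (1.10 ± 0.30) and Blnk (0.49 ± 0.14), Fcrla (1.22 ± 0.41), the MHC class II transactivator Ciita (0.44 ± 0.15), the Ikaros-family gene Ikzf3 (1.34 ± 0.48) and the E-protein gene Tcf3 (0.46 ± 0.17). The negative one was Prkd2. Without G183S replicate 3 the counts were 2 positive and 2 negative, against 377 and 511 of all 19936 genes, and the median slope was 0.06. Without both end arrays Ciita and Blnk had negative slopes of -0.24 and -0.35.

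Genes that Pax5 is known to repress showed no common slope. Of 20 measured, 8 were positive and 12 negative with a median of -0.05, and 2 were negative at an unadjusted p under 0.05, the Fc receptor chain Fcer1g (-0.44 ± 0.11) and the chemokine receptor Ccr9 (-0.27 ± 0.09). Among 22 partners and co-repressors of Pax5 the median was -0.07. The Groucho-family gene Tle6 stood out there with 8.19, 8.44, 8.66, 8.51, 8.53, 8.77 and 9.77 against 10.21 with empty vector. Every culture with Pax5 lay below the controls, and the lowest-Pax5 culture was nearest to them; the slope was -1.10 ± 0.18. The histone deacetylase Hdac2 (0.36 ± 0.11) and Ets1 (0.57 ± 0.20) had positive slopes at an unadjusted p under 0.05.

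Antigen presentation showed steep but uneven slopes. Of 11 measured MHC class II genes 9 had a positive slope and 3 reached an unadjusted p under 0.05; the median was 0.72. These 3 were the peptide-editing chain H2-Ob (0.67 ± 0.19), Ciita and the promoter-binding factor Rfx5 (0.46 ± 0.16). H2-Ea, a classical alpha chain, read 11.06, 9.45, 11.37, 10.47, 9.16, 8.77 and 8.62. High and low cultures occurred in both constructs, and the slope was 1.86 ± 0.87 with an unadjusted limma p of 0.072. Without the end arrays the list median was 0.15 and 0 of 11 reached an unadjusted p under 0.05. Only 143 of all 19936 genes did so in that fit, so this count says little of the list. Without G183S replicate 2 the median was 1.03 and 7 were positive at that level, where 2072 of all genes were.

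In B-cell receptor signalling positive and negative slopes balanced, with 14 and 11 of 25, 3 in each direction at an unadjusted p under 0.05 and a median of 0.14. Blnk, the BCAP adaptor Pik3ap1 (0.39 ± 0.11) and Vav2 (0.70 ± 0.26) were positive; the inhibitory adaptor Dok3 (-0.76 ± 0.17), Vav1 (-0.59 ± 0.18) and the phosphatase Ptpn6 (-0.65 ± 0.21) were negative. Surface molecules of mature B cells had a median of 0.01 over 24 genes. There Ms4a1, which encodes CD20, was positive (0.77 ± 0.27) and the tetraspanin Cd53 (-1.17 ± 0.22) and the Toll-like receptor partner Cd180 (-2.10 ± 0.67) negative at that level. Ms4a1 read between 12.34 and 12.60 in 6 cultures and 11.47 in G183S replicate 3, and its slope was -0.03 without the end arrays. Of 17 plasma-cell genes 0 reached an unadjusted p under 0.05 with all 7 arrays (median 0.29). Without G183S replicate 2, 7 did, all positive (median 0.51), where 2072 of all 19936 genes were positive at that level. Irf4 had a slope of 0.74 ± 0.32 and Prdm1, the repressor that drives plasma-cell fate, 0.69 ± 0.37.

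Genes of mitosis and the kinetochore had positive slopes without exception in this fit. All 25 measured were positive, with a median of 0.67, and 18 reached an unadjusted p under 0.05, against 5.67% of all genes. The checkpoint kinase Ttk read 9.72, 9.18, 9.56, 9.64, 9.30, 8.90 and 8.11, with a slope of 1.05 ± 0.27. The kinetochore protein Nuf2 had a slope of 0.89 ± 0.22, the topoisomerase Top2a 0.58 ± 0.15 and the centromere protein Cenpf 0.98 ± 0.31. G183S replicate 3 was the lowest of the 7 arrays for 24 of these 25 genes, against 15.5% of all genes. Averaged over the list it stood at 9.97, and the others at 10.41 to 11.16; the empty-vector arrays stood at 10.00 to 10.54. Without G183S replicate 3 the median was 0.41 and 24 of 25 were positive. At that level 0 of 25 were then positive, against 377 of all 19936 genes. At equal Pax5, 6 of the 25 were lower with G183S at an unadjusted p under 0.05, Cenpf by the most (-0.82). Whether the growth state of that culture had a part in its slopes was not tested.

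Other growth functions leaned the same way with shallower slopes. Of 25 DNA-replication genes 20 were positive and 8 reached an unadjusted p under 0.05, with a median of 0.22; the examples were Gins1 (0.55 ± 0.10), the ligase Lig1 (0.46 ± 0.09) and the helicase subunit Mcm7 (0.51 ± 0.10). All 25 ribosome-biogenesis genes were positive, with a median of 0.36 and 5 at that level, among them Utp20 (0.47 ± 0.09) and the RNA polymerase I subunit Polr1b (0.62 ± 0.20). Polr1b had a slope of -0.10 without the end arrays. Of 18 sterol-synthesis genes 17 were positive and 0 reached that level with all 7 arrays; WT replicate 1 was the highest array for 17 of the 18, and the median went from 0.44 to -0.06 without the end arrays. Genes of amino-acid synthesis and the ATF4 response were mixed: of 23, 15 were positive and 8 negative, with a median of 0.15. At that level 7 were positive, such as the serine-glycine enzyme Shmt2 (0.41 ± 0.09) and the alanine transaminase Gpt2 (0.66 ± 0.17). The transporter Slc7a3 (-0.37 ± 0.10) was the 1 negative gene at that level. The steepest slope of the 23 was also negative, that of Trib3 (-1.09 ± 0.53), but it did not reach that level. Sesn2 (-0.67 ± 0.41), Ddit4 (-0.33 ± 0.29) and Atf4 itself (-0.08 ± 0.16) were among the other negative ones. Without G183S replicate 3, where 377 of all 19936 genes were positive at that level, the count for DNA replication was 1, for ribosome biogenesis 1, and for amino acids 0. Without G183S replicate 2 it went up to 19 of 25 for ribosome biogenesis and 14 of 18 for sterol synthesis (median 0.69), where 2072 of all genes had positive slopes at that level. With all 7 arrays centred on their medians the positive counts were 13 for ribosome biogenesis, 7 for sterol synthesis, 11 for DNA replication and 9 for amino acids. In that fit 2345 of all genes were positive at that level.

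Defence and signalling genes had slopes of the other sign. Of 21 interferon-stimulated genes 16 were negative, against 11737 of all 19936 genes. At an unadjusted p under 0.05, 6 were negative, against 5.82% of all genes, and the median was -0.31. Xaf1, an apoptosis factor induced by interferon, read 5.93, 6.22, 6.74, 6.82, 6.92, 6.53 and 7.56, and 7.73 with empty vector. Its highest culture was that with the least Pax5; its slope was -1.32 ± 0.19 (limma adjusted p = 0.311), and -0.60 ± 0.65 in the middle 5 arrays. The RNA sensor Ifih1 had a slope of -1.32 ± 0.27 and the protease Usp18 one of -0.37 ± 0.11. Only 7 of the 21 lay above the median gene, so most were dim. Without G183S replicate 3 the count was 7 and the median -0.45, where 511 of all 19936 genes were negative at that level. Without WT replicate 1 they were 3 and -0.06, where 581 of all genes were.

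NF-kB targets had a median of -0.43 over 18 genes, 15 of them negative and 3 at that level: the signalling adaptor Traf1 (-0.99 ± 0.26), the inhibitor Tnip1 (-0.43 ± 0.13) and the apoptosis inhibitor Birc3 (-0.44 ± 0.17). WT replicate 1 was the lowest array for 72.2% of these genes, against 18.8% of all genes, and without it the median was -0.20; without G183S replicate 3 it was -0.75. Of 24 immediate early genes 3 were negative at that level, led by the phosphatase Dusp1 (-1.08 ± 0.26). The BCL2 family had 2 of 15, among them Pmaip1 (-1.60 ± 0.62), which encodes the cell-death protein NOXA, and p53 targets 2 of 17 negative and 1 positive. Reference genes had a median of 0.01 and 0 of 14 at that level. None reached it either among oxidative phosphorylation (0 of 25, median 0.096), secretory-pathway (0 of 22, median -0.02) and heat-shock genes (0 of 16, median 0.11). Without G183S replicate 2, 7 of the 16 heat-shock and 6 of the 25 oxidative phosphorylation genes were positive at that level, where 2072 of all 19936 genes were. In the glycolysis list 2 of 20 were positive at that level, and in the cytoskeleton and adhesion list 1 positive and 3 negative of 24. With arrays centred on their medians the glycolysis count was 8, where 2345 of all genes were positive. Leaving out G183S replicate 2 gave 7 positive of 20 for glycolysis, 7 negative of 24 for immediate early genes, 7 negative of 17 for p53 targets, 4 negative of 15 for the BCL2 family, and 8 positive and 4 negative of 25 for B-cell receptor signalling.

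Some markers of other cell types had negative slopes too, at low levels. Of 16 T-cell markers 6 had a negative slope at an unadjusted p under 0.05, among them Cd5 (-0.87 ± 0.16), Cd3g (-0.41 ± 0.09) and Cd4 (-0.38 ± 0.12). The defining Cd3e read 6.55 to 6.72. Of 19 myeloid markers 4 did so, led by the Fc receptor Fcgr3 (-0.89 ± 0.17) and Cd68 (-1.03 ± 0.24), while Csf1r read 5.69 to 5.92; the list averaged 6.23 to 6.58. Of 7 erythroid markers 1 was negative, and of 19 stromal markers 1 was negative and 1, Cdh5, positive. With arrays centred on their medians the T-cell and myeloid counts were 2 and 2 negative. Of all 19936 genes, 1161 were negative at that level before centring and 431 after it. The part of these markers in the other slopes was not tested.

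**Figure D4:**
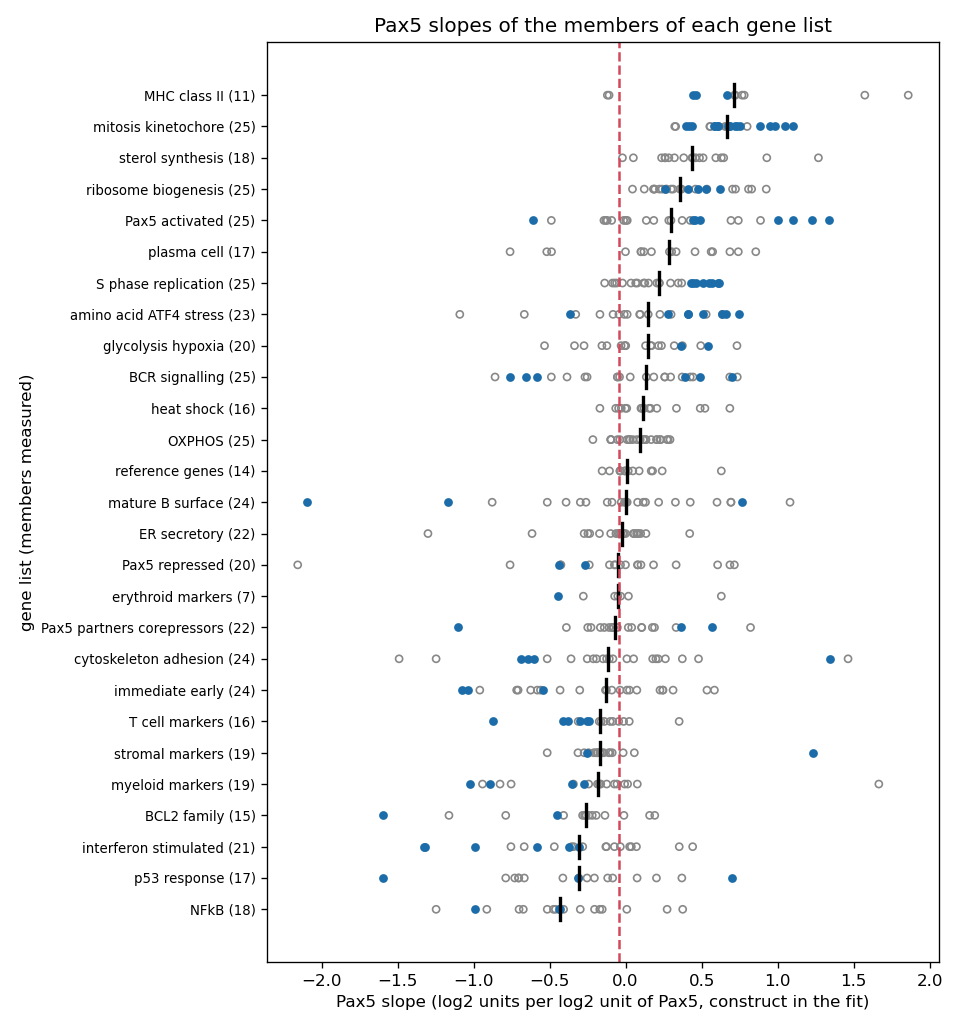
The Pax5 slope (horizontal axis, log2 units per log2 unit of Pax5) of every measured member of 27 gene lists (rows, with the number measured), filled where the unadjusted limma p is under 0.05; black ticks are list medians and the dashed line is the median of all genes, -0.04. The mitosis row lies wholly to the right of 0 with a median of 0.67, and the NF-kB row has the lowest median, -0.43.

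The gradient can be set beside the step from empty vector to Pax5. A fit to all 10 arrays found 42 genes higher in the Pax5 cultures (mean of both constructs) by at least 1 log2 unit at a limma adjusted p under 0.05 (0.211% of genes), and 27 lower (0.135%). Step and slope share the same 7 arrays, so they are not independent. Of the 42 higher genes 40 had a positive slope and 22 reached an unadjusted p under 0.05; of the 27 lower genes 27 had a negative slope and 9 reached that level. The step in Pax5 itself was 3.14 log2 units. Per log2 unit of Pax5 the higher genes had a median step of 0.49 and a median slope within the 7 cultures of 0.80, and the slope was steeper than the step in 31 of 42. For the lower genes these medians were -0.37 and -0.45, steeper in 16 of 27. Without the 2 end arrays the median slopes were 0.39 and -0.61, so for the higher genes the slope was then below the step.

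G183S replicate 3 was the lowest of the 7 arrays for 33 of the 42 higher genes, against 15.5% of all genes. It was the highest, and so nearest to empty vector, for 10 of the 27 lower genes, against 18.6% of all genes. WT replicate 2, in the middle of the gradient, was the highest for 9 of these 27. The median share of the step in G183S replicate 3 was 54.8% for the higher and 80.9% for the lower genes. Without that array 32 of the 42 slopes were positive. At an unadjusted p under 0.05, 10 were positive, where 377 of all 19936 genes were. Without both end arrays 28 were positive and 1 reached that level, where 66 of all genes were positive at it.

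Single genes differed widely in this respect. The formin Fhod3 read 10.37, 9.08, 9.52, 9.74, 9.94, 8.70 and 7.82 and 6.65 with empty vector, with a slope of 1.34 ± 0.26 and lower values in G183S at equal Pax5 (-0.85). The aryl hydrocarbon receptor gene Ahr read 10.31, 9.24, 9.56, 10.33, 9.21, 9.14 and 7.72, a slope of 1.53 ± 0.43. In both genes the culture with the least Pax5 was nearest to the controls.

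The scavenger receptor Cd36 read 8.86 in that culture and 10.22 to 11.82 in the other 6, with 4.79 for empty vector; its slope was 1.52 ± 0.77, and -0.09 without G183S replicate 3. The semaphorin receptor Plxnc1 read 7.43 there and at least 9.50 elsewhere (slope 1.46 ± 0.62, and -0.24 without that array). Another pair stood well above the controls in every culture, with slopes that were not told apart from 0. The inhibitory Fc receptor Fcgr2b read 12.02 to 12.59 against 10.31, with a slope of -0.05 ± 0.22, and the membrane-bending Bin1 9.54 to 10.57 against 7.09, with a slope of 0.26 ± 0.47.

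**Figure D5:**
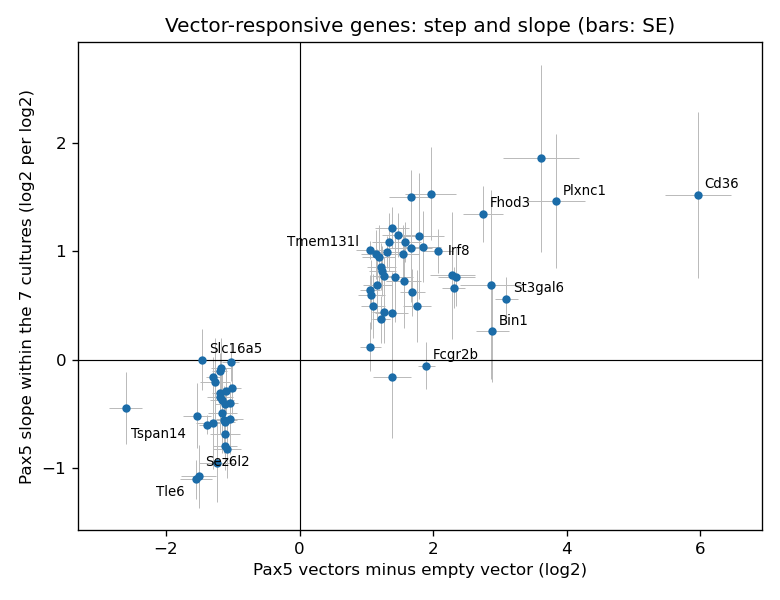
For the 42 higher and 27 lower genes, the Pax5 slope within the 7 cultures (vertical axis, with SE) against the difference between Pax5 vectors and empty vector (horizontal axis, log2 units, with SE). Most higher genes lie above 0 on the vertical axis and the lower genes at or below it, and Fcgr2b (-0.05) lies near 0 despite its step of 1.90.

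Genes that differed between the constructs at an unadjusted p under 0.05 are given next, whether or not they also had a Pax5 slope. None passed (limma, smallest adjusted p 0.54, with 1166 at an unadjusted p under 0.05). Pvt1, a long non-coding RNA beside Myc, read 9.43, 9.41 and 9.54 in WT replicates 1 to 3 and 10.12, 10.18, 10.28 and 10.21 in G183S replicates 1 to 4. The groups did not overlap, and G183S was higher by 0.70 ± 0.07 log2 units at equal Pax5, with a Pax5 slope of -0.12 ± 0.09. The empty-vector arrays read 10.35, 9.39 and 9.42, so 1 control array was as high as the G183S arrays. Lncpint, also a long non-coding RNA, was higher by 0.44 ± 0.08 and likewise read 10.14 in empty-vector replicate 1 and 9.41 and 9.26 in the other controls.

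Ly6e, a lipid-anchored surface protein, read 11.54, 11.69 and 12.09 with WT and 12.60, 12.54, 13.11 and 12.76 with G183S. Controls read 12.71 to 12.84, beside the G183S arrays. Its difference was 0.81 ± 0.10, and it had a slope of -0.59 ± 0.14 as well, so it ran with both. Differences of 0.43 ± 0.07 to 0.44 ± 0.08 were found for the RNase P subunit Pop5, the autophagy enzyme Atg3 and Gmip. Nckap1, a subunit of the actin-branching WAVE complex, was higher by 1.51 ± 0.28.

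Lower with G183S were Rbpms, an RNA-binding protein (-1.68 ± 0.23), Pxdc1 (-1.71 ± 0.30), the sialyltransferase St3gal6 (-0.99 ± 0.15), the B-cell adaptor Themis2 (-0.58 ± 0.07), the kinase subunit Pik3cg (-0.62 ± 0.08) and the receptor Gabbr1 (-0.36 ± 0.07). Pxdc1 read 9.63, 10.09 and 10.07 with WT and 8.03, 8.71, 7.30 and 8.10 with G183S, against 7.85 to 8.48 with empty vector. The G183S arrays thus lay around the controls and the WT arrays above them. Siglecg, an inhibitory lectin of B cells, was lower as well (-0.84 ± 0.16), as was the nucleotidase Nt5c2 (-1.31 ± 0.24), with Pax5 slopes of 0.37 ± 0.22 and -0.01 ± 0.32. Rbpms was called when WT replicate 2 was left out (-2.02 ± 0.07, limma adjusted p = 0.0113).

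The most variable genes that followed neither term had patterns of their own. The ATP receptor P2rx7 read 11.29 in WT replicate 3 and 7.37 to 8.33 in the other 6 cultures. Lrrc8e, a subunit of volume-regulated anion channels, read 10.15 in G183S replicate 3, 9.72 and 9.69 in G183S replicates 2 and 4, and 6.56 in G183S replicate 1, with 6.01 to 7.77 in WT. Rpgrip1l, a ciliary gene, was high in WT replicates 1 and 2 (11.46 and 10.55) and G183S replicate 4 (9.97) and at most 8.30 in the others. G183S replicate 1 stood with the WT arrays for Lrrc8e and for Tmem184a. It read 6.25 for Tmem184a, where the other G183S arrays read 8.68 to 8.75 and WT arrays 5.89 to 7.60. The GTPase gene Gimap4 read 5.73 in WT replicate 1, 7.60 in WT replicate 2 and 9.17 to 10.12 in the other 5. The chemokine gene Ccl3 read 6.01 in WT replicate 1 and 7.62 to 9.68 in the others; its slope of -2.16 ± 0.92 had an unadjusted limma p of 0.053.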

How the data were processed

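RNA of 10 cultures was read on Affymetrix whole-transcript arrays. The authors deposited 1 log2 value per probe set and array, made with RMA and Partek per the submitters' processing notes, which give no version. RMA forces arrays to 1 distribution. Background signals and scan dates were not used here. The deposited table held 34760 probe sets; 21640 had 1 gene symbol, and the one with the highest mean was kept for each of 19937 genes. Pax5 has 1 probe set. Pax5 itself was left out of the tests.

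limma 3.58.1 in R 4.3.3 fitted each gene over the 7 Pax5-vector arrays on log2 Pax5 and construct (4 residual and 2.53 prior degrees of freedom), with Benjamini-Hochberg adjustment over 19936 genes and calls at two-sided adjusted p under 0.05; a second fit had a slope for each construct. Slopes are given with limma's standard error. The number of arrays limits the precision. Permutation tests were exact and two-sided. Gene names were checked against RefSeq (21553 symbols matched). The fits were tested on simulated data. Figures used Python 3.11.15, numpy 2.4.6, pandas 2.3.3 and matplotlib 3.10.9.

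Named genes are the 12 with the smallest slope p in each direction, the 6 with the smallest construct p in each direction, the 6 most variable with neither, the 5 most like and the 5 most opposite to Pax5 (all above the median level, leaving out predicted and clone-named genes, small RNAs, chemosensory receptors and antigen-receptor segments), the leading 3 by slope and 2 by construct of each list, and a short list of genes from earlier results. Further list members are named to complete small counts, and Cd3e, Csf1r and other defining markers as label checks. The members, the 27 lists (509 of 573 genes measured) and the tests were chosen with earlier results of these data known.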

Additional observations from a re-analysis of the deposited data

Results flagged for a closer look

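For 10 of 104 genes whose levels were examined, 1 of the 4 G183S cultures stood apart from the other 3: its gap to the nearest of them, as a share of the range of the group, was above Dixon's critical value for groups of 4. Chance gives such a gap in about 1 of 20 groups, but these genes had been chosen for a slope on Pax5, a construct difference, a list or a large spread, so their number cannot be set against that share.

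In 7 of them the culture was G183S replicate 3, which had the least Pax5. It was high for the carrier gene Slc25a43 (9.22 log2 units, others 8.63 to 8.73), for Jade2 (9.65, others 8.88 to 8.95), for Cd5 (7.95, others 7.11 to 7.16) and for the Fc receptor gene Fcgr3 (7.66, others 6.68 to 6.82). It was low for the adaptor Pik3ap1 (9.81, others 10.23 to 10.26), the folate enzyme Shmt2 (12.46, others 12.81 to 12.86) and the semaphorin receptor Plxnc1 (7.43, others 9.50 to 9.54).

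In the other 3 it was G183S replicate 1. It was low for the channel subunit Lrrc8e (6.56, others 9.69 to 10.15), the chemokine Ccl3 (7.62, others 9.40 to 9.68) and Tmem184a (6.25, others 8.68 to 8.75).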

How the results depend on the processing

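No gene passed for the Pax5 slope in the fits on linear or ranked Pax5, with the mean of probe sets, centred arrays, trended or no moderation, only genes above the median level, or any 1 array left out. It was called for 1 gene with no construct term, for 5 with the spread taken from all 10 arrays (Glipr1, Gmfg, Scimp, Tmem131l and Zfp94) and for 24 with array weights, where G183S replicate 3 had a weight of 3.43 and G183S replicate 1 of 0.411. At an unadjusted limma p under 0.05 the slope count was 1130 among the 9968 genes above the median level (775 positive, 355 negative), where fewer genes were tested, 4232 with array weights and 143 without the 2 end arrays. The construct count was 404, 2683 and 661 in the same 3 fits. The count of slopes that differed between constructs was 307 and 1797 in the first 2 of these; with the spread from all 10 arrays 4 genes were called. The causes of the other differences were not tested.

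With each array left out in turn, the counts at an unadjusted p under 0.05 ran from 888 to 3567 for the slope, 661 to 3284 for the construct and 323 to 2107 for the slope difference, and adjusted calls from 0 to 0, 0 to 1 and 0 to 2. The size of r with the first component ran from 0.46 to 0.905, the latter without G183S replicate 2 (exact permutation, adjusted p = 0.00833).

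Whether the replicate numbers pair the cultures is not settled by these values. The deviations of WT and G183S cultures of the same number correlated across genes at 0.507, -0.161 and 0.455. The values for numbers 1 and 3 were the highest between any groups, with 0.285 next. WT replicate 2 correlated most with G183S replicate 3 (0.0821). Between empty-vector and Pax5 cultures of the same number the values ran from -0.162 to 0.108. With the number as a replicate block the slope count was 1169, the construct count 2383 and adjusted calls 0. The block gave slopes of the other sign for Rfx5 (-0.018), Ets1 (-0.047), Pmaip1 (0.31), Cd36 (-0.29), H2-Ea (-0.84), Fcgr2b (0.47), Irf4 (-0.059), Prdm1 (-0.34), Ikzf3 (-0.29) and Vav1 (0.043), and list medians of the other sign for NF-kB (0.50), MHC class II (-0.29), plasma-cell (-0.68), sterol (-0.25), p53 (0.26), oxidative phosphorylation (-0.16) and B-cell receptor signalling genes (-0.11), among others. The mitosis median was 0.13.

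Slopes that changed sign without the 2 end arrays were those of Blnk (-0.35), Pik3ap1 (-0.085), Ms4a1 (-0.033), H2-Ob (-0.46), Ciita (-0.24), Polr1b (-0.10), Tnip1 (0.038), Cd5 (0.10), Fcgr3 (0.019), Cd36 (-0.58), Plxnc1 (-0.12) and Bin1 (-0.39). With 1 array left out in turn the slope ran from -0.45 to 0.15 for Fcgr2b (positive without WT replicate 1 or 3), from -0.56 to 0.63 for Bin1 (negative without G183S replicate 2 or 3), and, negative without G183S replicate 3, from -0.086 to 2.17 for Cd36 and from -0.24 to 2.20 for Plxnc1. Fcgr2b was 0.031 with centred arrays and 0.089 with array weights, and Bin1 was -0.0013 on ranked Pax5. The list counts without single arrays and the comparison of step and slope were chosen after seeing the data.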
